A study of Homo sapiens with 60 samples.

Results

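Cells of HT29, an established human line of colorectal adenocarcinoma epithelium, were given a water extract of the herbal formula Saengmaek-san at its high dose of 500 µg/mL, and their transcripts were compared with those of cells given the vehicle, 0.1% DMSO per the sample labels, both at 24 h. The comparison uses all 6 libraries whose labels name these groups, 3 per group, out of 60 libraries in the series, and every gene that passed a filter on low counts, 17049 of 60675 identifiers. Saengmaek-san at 100 µg/mL (medium) and 20 µg/mL (low), 3 libraries each, and 5 other extracts at their high dose, 15 libraries, serve for comparison. These libraries, and those of the same 5 extracts at lower doses, were also part of the fit, over 57 libraries of 19 groups. The spread behind each p-value was estimated from all of these groups. At an adjusted p under 0.05, that fit gave 730 genes for the high dose against vehicle. A fit of the 6 high-dose and vehicle libraries alone gave 51. All cells were one line in one culture medium. The labels do not say whether cells given an extract also held DMSO, so an effect of the extract and one of the solvent cannot be told apart in any comparison with vehicle. The series' design text gives the vehicle as 2% DMSO, a difference from the sample labels that was not settled. The labels also do not say whether the replicates of a group were separate cultures. The p-values therefore measure differences only against the spread of libraries within the groups fitted, which may be technical variation.

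Saengmaek-san is a traditional decoction of ginseng root, an Ophiopogon or Liriope tuber and Schisandra fruit. NRF2, a transcription factor held at low levels by KEAP1, is released when electrophiles or oxidants modify KEAP1, and it then drives genes for glutathione synthesis, quinone reduction, NADPH supply and aldo-keto reduction through antioxidant response elements. The aryl hydrocarbon receptor (AhR) answers many plant aromatics by inducing CYP1 enzymes. HT29 cells keep traits of intestinal epithelium, including mucin genes and the WNT-driven factors of the crypt.

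GCLM, AKR1C3 and AKR1C1 were among the NRF2 targets with the largest rises, and their promoter sequences are shown because antioxidant response elements are the sites through which NRF2 acts. Each runs 5′ to 3′ on the gene's strand, from 250 bases before to 50 after the gene start, from RefSeq on GRCh38.p14. Capitals mark a match to the element's core, TGACNNNGC, on either strand. GCLM lies at chr1:93909381-93909680 on the minus strand, AKR1C3 at chr10:5048531-5048830 and AKR1C1 at chr10:4963165-4963464, both on the plus strand.
GCLM: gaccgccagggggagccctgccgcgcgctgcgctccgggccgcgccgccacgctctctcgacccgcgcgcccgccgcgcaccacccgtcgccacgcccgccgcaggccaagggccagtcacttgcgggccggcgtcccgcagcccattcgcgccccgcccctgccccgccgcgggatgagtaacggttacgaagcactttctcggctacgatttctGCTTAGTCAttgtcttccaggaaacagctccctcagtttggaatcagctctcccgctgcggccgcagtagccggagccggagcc
AKR1C3: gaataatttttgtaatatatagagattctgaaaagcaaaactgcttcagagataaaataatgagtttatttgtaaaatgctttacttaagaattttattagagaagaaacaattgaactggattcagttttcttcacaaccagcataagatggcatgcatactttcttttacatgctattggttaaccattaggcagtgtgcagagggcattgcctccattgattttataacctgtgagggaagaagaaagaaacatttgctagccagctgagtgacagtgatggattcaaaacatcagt
AKR1C1: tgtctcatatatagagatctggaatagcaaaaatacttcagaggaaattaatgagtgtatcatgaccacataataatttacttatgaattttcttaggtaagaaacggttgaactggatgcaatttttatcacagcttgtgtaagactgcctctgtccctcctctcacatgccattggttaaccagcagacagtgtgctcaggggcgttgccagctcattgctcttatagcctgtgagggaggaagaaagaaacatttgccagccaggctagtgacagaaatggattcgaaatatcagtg
The GCLM window held 1 match, GCTTAGTCA on the printed strand, whose first base in the printed direction lies at position -34 from the gene start. The AKR1C3 and AKR1C1 windows held none, and neither did that of AKR1C2. Among the 9 NRF2 targets that rose and had a promoter in the table, 3 (33.3%) held the core, as did 7 of the 25 measured NRF2 targets with a promoter (28.0%), whether they rose or not. It was held by 14.9% of the 10464 promoters of tested genes and 13.6% of all 27305 in the table. A match is a description of letters and shows no binding.

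Across all genes, 730 of 17049 passed an adjusted p of 0.05 in edgeR's quasi-likelihood test, which is 4.28% of the genes tested. Of these, 407 were higher (2.39%) and 323 lower (1.89%). The sizes were small, with a median log2 fold change of 0.20 among the rises and -0.25 among the falls, and 6 rises and 8 falls reached 1. The 3 values of each group did not overlap for 704 of the 730, as for 20.9% of all genes (10.5% higher, 10.4% lower). With no filter on low counts 760 genes were called, 272 higher and 488 lower, and with the groups compared fitted alone 51 were, 9 higher and 42 lower. Since whole cultures were sequenced, fewer cells of a type and less RNA per cell cannot be told apart in any of these differences.

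The number of calls moved with single libraries and with the base composition of transcripts. Each library was scored by how much higher its genes of low transcript GC stood than its genes of high GC, relative to the mean of all libraries on the log2 scale. Vehicle 1 had the lowest score of all 60 libraries, -0.172, and high dose 2 the highest, 0.229. The other scores were -0.034 and -0.019 in vehicle 2 and 3, and -0.020 and 0.068 in high dose 1 and 3. Without vehicle 1, 95 genes were called, and without high dose 2, 125. Transcripts of the genes that rose had a median GC of 39.9%, and those of the genes that fell 58.5%, against 48.7% for all genes tested. An offset that levels this slant within each library, chosen after seeing the data, left 328 calls, 158 higher and 170 lower, of which 237 were calls without it. Of 97 genes called among those named by rule, 66 were not called without vehicle 1, 66 without high dose 2 and 48 with the offset. Those called under every setting but the fits on the groups compared alone were 16, namely AHDC1, AKR1B10, AKR1C1, CLK1, DNAJB1, GCLC, GCLM, HOXB3, KLF6, MAST3, NFKBIZ, PRR36, SELENOW, TXNRD1, WNK4 and ZNF367. The part of the slant in the other calls was not tested.

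**Figure D1:**
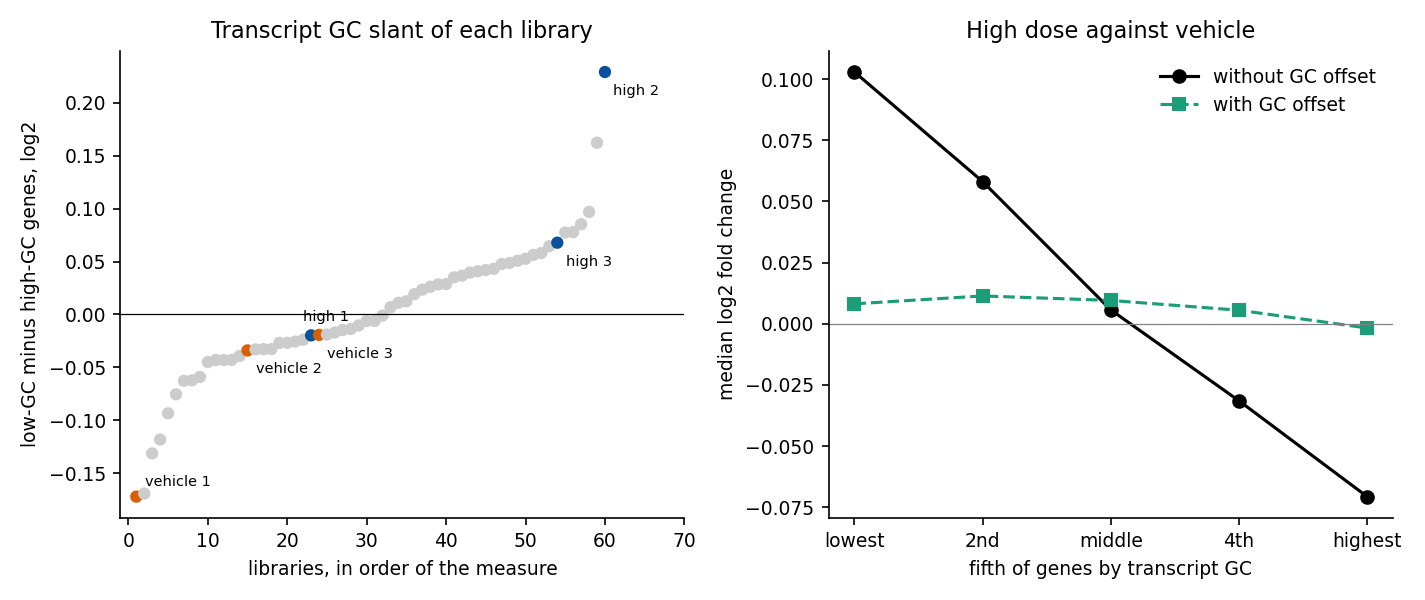
Left, the GC score of each of the 60 libraries in rising order (log2, genes of low minus genes of high transcript GC), with the libraries of the comparison coloured and named. Right, the median log2 fold change of the high dose against vehicle in 5 equal groups of genes by transcript GC, which runs from 0.10 in the group of lowest GC to -0.07 in the highest without the offset (circles) and lies between -0.00 and 0.01 with it (squares).

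**Figure D2:**
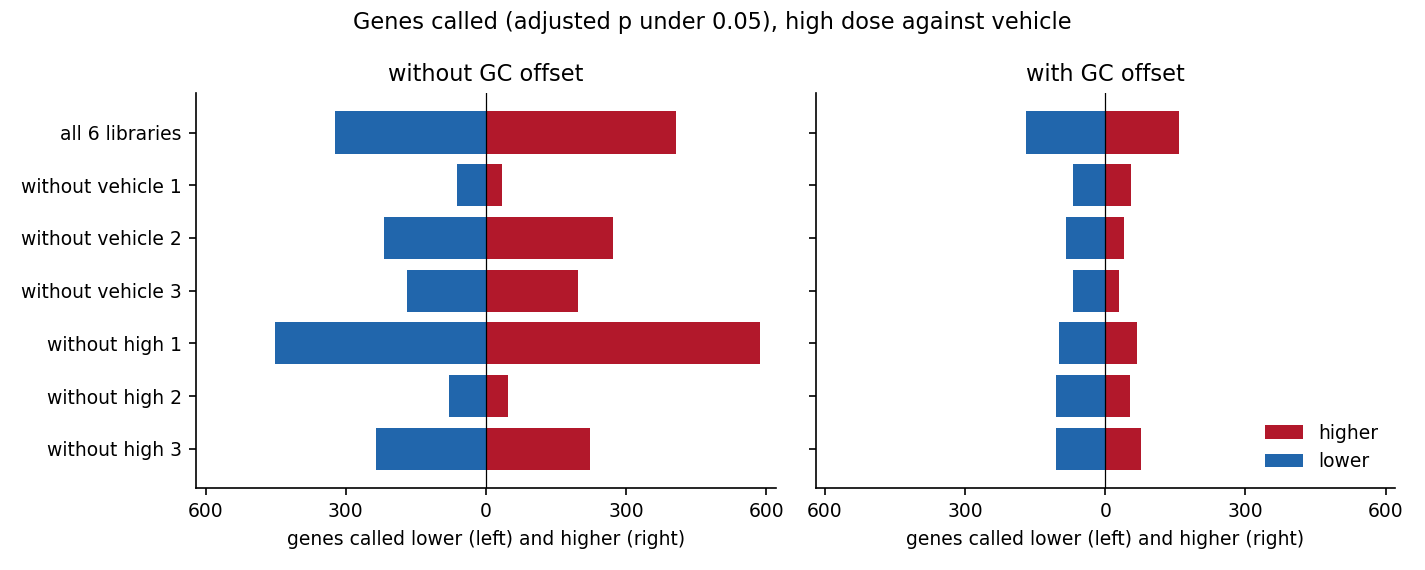
Genes called higher (red, to the right) and lower (blue, to the left) at the high dose against vehicle, with all 6 libraries and with each left out in turn, without (left) and with (right) the GC offset. The total falls to 95 without vehicle 1 and 125 without high dose 2 on the left, and lies between 98 and 183 in the 6 reduced fits on the right.

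The libraries also differed in other ways. Transcripts of mitochondrial genes took 10.6, 10.0 and 12.3% of counts in the high-dose libraries and 12.8, 12.8 and 13.5% in vehicle, a difference of -2.05 percentage points with groups that did not overlap (two-sided exact permutation p = 0.1, the smallest that 3 against 3 allows). By library number, the series was cut into an earlier and a later part at a point that no label marks. The cut lies between Guibi-tang high dose 2 and medium dose 2, where the first principal component passes from -5.69 to 9.83. That component separated the parts, which is no independent support for the cut. All vehicle libraries and Saengmaek-san high dose 1 and 2 were in the earlier part and Saengmaek-san high dose 3 in the later. With a term for the part in the fit, 1089 genes were called, 626 higher and 463 lower, and 679 of the 730 calls remained. Library totals, in 1e6 counts, were 36.6, 31.8 and 21.6 at the high dose and 29.8, 38.5 and 33.1 in vehicle, within the 19.5 to 41.9 of the series. All 12 markers of colorectal epithelium on the list were at 1 CPM (counts per 1e6) or more. Sums of other marker lists are given per 1e6 counts of the library. Of 8 endothelial markers, CDH5, KDR, CLEC14A and EMCN were at 0 and 3 reached 1 CPM in a library, with sums of 46.4 to 47.2 CPM at the high dose and 46.3 to 49.1 CPM in vehicle, nearly all of it ESAM. Of 12 leukocyte markers, CD3D and FCGR3A were at 0 and 4 reached 1 CPM, with sums of 1326 to 1558 CPM and 1406 to 1446 CPM, nearly all of it LYZ, which secretory gut epithelium also makes. Of 10 liver and kidney markers, ALB, APOA2, UMOD and NPHS1 were at 0 and 2 reached 1 CPM, with sums of 296 to 332 CPM and 316 to 332 CPM, nearly all of it SERPINA1. Of 9 neuronal and neuroendocrine markers, CHGB and NEUROD1 were at 0 and 3 reached 1 CPM, with sums of 20.6 to 23.7 CPM over the 6 libraries. The groups overlapped in each of these 4 sums. Of 10 fibroblast markers, PDGFRA was at 0 and 3 reached 1 CPM, with sums of 3.10 to 3.56 CPM at the high dose and 4.08 to 4.70 CPM in vehicle, which did not overlap. Of 22 goblet and secretory genes, ITLN1 was at 0 and 16 reached 1 CPM. Their sums were 849 to 928 CPM at the high dose and 960 to 990 CPM in vehicle, which did not overlap either. Sums of 21 enterocyte genes overlapped, at 596 to 649 CPM and 591 to 597 CPM. The part of the mitochondrial share and of these markers in the results was not tested.

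NRF2 targets gave a set of small rises. Of 35 measured targets, 11 rose and none fell, against 2.39% and 1.89% of all genes. On the log2 scale 31 of the 35 were above 0, and the median was 0.12 beside 0.01 for all genes tested. The groups did not overlap for 16 members, all higher, where 10.5% of all genes were apart and higher. CHAC1, which degrades glutathione, was the lowest member at -0.45 (edgeR adjusted p = 0.0917). Leaving out 1 library at a time, the number that rose ranged from 6, without high dose 2, to 11. CHAC1 was called lower without high dose 3, on the earlier libraries alone and with a term for library order (also with the GC offset added), and it was the only member called lower under any setting run. With the GC offset 11 rose with a median of 0.16, and 5 to 11 did in its fits without 1 library.

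Both subunits of glutamate-cysteine ligase, the limiting enzyme of glutathione synthesis, rose. GCLM (ENSG00000023909, chr1:93885205-93909456 on GRCh38), the modifier subunit, stood at 73.3, 81.5 and 73.7 CPM at the high dose and 46.3, 54.9 and 60.7 CPM in vehicle. Every high-dose library lay above every vehicle library, although vehicle 1 lay well below its 2 partners. The log2 fold change was 0.50 ± 0.076 (SE, n = 3 and 3), or 1.41-fold (edgeR adjusted p = 8.44e-05). GCLC, the catalytic subunit, stood at 98.1, 99.7 and 104 CPM against 73.9, 78.5 and 78.7 CPM, with no overlap and a tighter spread in vehicle. Its log2 fold change was 0.38 ± 0.056 (edgeR adjusted p = 4.68e-05). Both subunits were called in all 6 fits without 1 library and with the GC offset. SLC7A11, the cystine importer that feeds this pathway, stood at 187, 207 and 157 CPM against 97.2, 132 and 139 CPM. Its rise of 0.58 ± 0.13 (edgeR adjusted p = 0.0109) was lost without vehicle 1 or without high dose 2, where the adjusted p reached 0.14. Of the remaining members that make, recycle or use glutathione, GSR stood at 0.11 (edgeR adjusted p = 0.104) and GSS at 0.02.

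Among the enzymes that reduce quinones and thioredoxin or break down haem, all 10 members were above 0. Of them 2 rose, beside 2.39% of all genes. TXNRD1, thioredoxin reductase, stood at 405, 404 and 371 CPM against 327, 317 and 321 CPM, and the lowest high-dose library was still above the highest vehicle library. Its log2 fold change was 0.29 ± 0.053 (edgeR adjusted p = 0.00103), kept in all 6 fits without 1 library. NQO1, a quinone reductase that is also an AhR target, stood at 550, 560 and 520 CPM against 469, 453 and 472 CPM (0.23 ± 0.05, edgeR adjusted p = 0.00729). HMOX1, haem oxygenase, stood at 14.0, 12.8 and 11.9 CPM against 11, 10.4 and 9.79 CPM, apart in every library but just short of the threshold (0.32, edgeR adjusted p = 0.0515, and 0.0249 with the GC offset). Of the 7 genes for NADPH and related supply, all were above 0, and ME1, the NADP-dependent malic enzyme, and UGDH, which makes UDP-glucuronate, rose by 0.25 and 0.23 (edgeR adjusted p = 0.00141 and 0.00482). PGD of the pentose phosphate pathway stood at 0.03 and did not pass.

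The aldo-keto reductases, which reduce carbonyls including prostaglandins, steroids and retinal, gave 4 rises among 7 members of their group, beside 2.39% of all genes. AKR1C1 stood at 22.6, 22.7 and 23.2 CPM against 16.9, 15.8 and 16.8 CPM, narrow groups that did not overlap (0.47 ± 0.078, edgeR adjusted p = 0.000324). AKR1B10 stood at 138, 139 and 135 CPM against 100, 98.2 and 103 CPM, also with a narrow spread (0.45 ± 0.095, edgeR adjusted p = 0.00582). Both calls held in all 6 fits without 1 library and with the GC offset. AKR1C3 rose by 0.49 and AKR1C2 by 0.45 (edgeR adjusted p = 0.0136 and 0.0109), with AKR1C2 at an adjusted p of 0.0683 under the GC offset. The AKR1C genes are near-identical copies, so the division of shared reads between them is uncertain. Of the 3 exporters on the list edgeR and DESeq2 called none and 0 had an unadjusted p under 0.05, with ABCC2 at 0.43 on about 1 CPM and ABCC1 and ABCC3 at -0.02 and -0.01. TRIM16L, a near copy of TRIM16 whose reads may be divided in the same way, stood at 17.0, 15.8 and 14.4 CPM against 12.2, 10.7 and 13.1 CPM (0.40, edgeR adjusted p = 0.0056).

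Around the pathway itself, BACH1, the repressor that competes with NRF2 at its sites, rose by 0.28 (edgeR adjusted p = 0.0473) with overlapping groups, and it was called in 2 of the 6 fits without 1 library. SQSTM1, an adaptor that binds KEAP1, stood at 368, 346 and 370 CPM against 340, 327 and 331 CPM (0.12, edgeR adjusted p = 0.0574). With the GC offset SQSTM1 was called, at an adjusted p of 0.00455, as it was in all 6 such fits without 1 library. The AhR list gave 4 rises among 9 members, NQO1, CYP1A1, CYP1B1 and TIPARP, beside 2.39% of all genes. The number that rose was 1 without vehicle 1 or high dose 2, 2 without vehicle 2, vehicle 3 or high dose 3, and 3 without high dose 1. CYP1A1 stood at 1.14, 0.766 and 1.39 CPM against 0.336, 0.576 and 0.550 CPM, a log2 difference of 1.11 ± 0.31 on few counts (edgeR adjusted p = 0.0275) that held in 2 of 6 fits without 1 library. AHRR, the receptor's feedback repressor, stood at -0.16 (edgeR adjusted p = 0.334). Among genes of glucuronidation and efflux, 4 of 17 rose, namely UGT1A1, UGT1A8, UGT1A10 and the exporter ABCG2, beside 2.39% of all genes. None rose without vehicle 1, and 2 did without vehicle 3 or high dose 2. The UGT1A genes share exons, so their 3 rises of 0.17 to 0.24 are not separate measurements. ABCG2 rose by 0.18 (edgeR adjusted p = 0.00751). With the GC offset BACH1, CYP1B1, TIPARP, UGT1A10 and ABCG2 were no longer called.

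**Figure D3:**
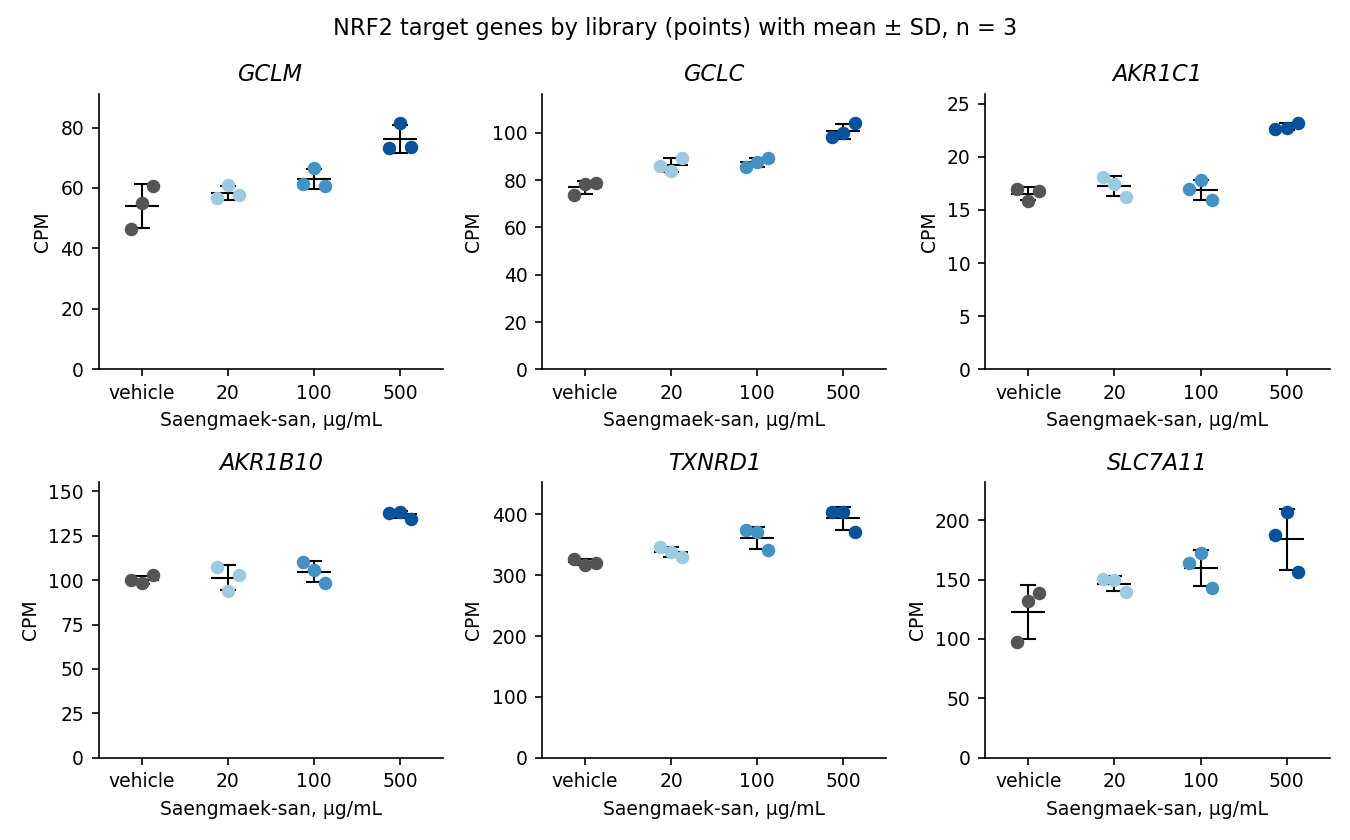
CPM of 6 NRF2 targets in each library (points, with mean ± SD, n = 3) in vehicle and at 20, 100 and 500 µg/mL of Saengmaek-san. AKR1C1 and AKR1B10 stand near vehicle at 20 and 100 µg/mL and above it at 500 µg/mL, where every library of all 6 genes lies above every vehicle library.

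At the lower doses the same genes lay nearer to vehicle. In edgeR's test no NRF2 target was called at the medium dose, where 0.416% of all genes were, or at the low dose, where 0.0938% were, and the list medians were 0.03 and 0.00. At an unadjusted p under 0.05 there were 5 members for the medium and 1 for the low dose, and DESeq2's test called 0 at either. GCLM had fold changes of 0.11, 0.22 and 0.50 at the low, medium and high dose, all against the same 3 vehicle libraries. AKR1C1 stood at 18.1, 17.5 and 16.2 CPM at the low dose and 17.0, 17.8 and 15.9 CPM at the medium dose, within or next to the vehicle values. The high dose compared directly with the low dose gave 4 calls in all, 0.0235% of genes. They were GCLM (0.38, 95% interval 0.23 to 0.54, edgeR adjusted p = 0.0355), AKR1C1 (0.40, interval 0.24 to 0.56, edgeR adjusted p = 0.0355), the noncoding RNA LINC00261 and an uncharacterised noncoding gene. AKR1B10 differed by 0.43 (interval 0.24 to 0.63) and did not pass (edgeR adjusted p = 0.072). Neither side of this comparison is a vehicle library. Leaving out any of its 6 libraries gave 0 calls in edgeR's test, with 929 to 1779 genes at an unadjusted p under 0.05.

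Another set of genes stood apart from vehicle by a similar amount at every dose. CLK1 (ENSG00000013441, chr2:200853009-200864744 on GRCh38), a kinase that phosphorylates splicing factors of the SR family, stood at 46.3, 50.9 and 53.1 CPM at the high dose against 30.9, 33.5 and 31.8 CPM in vehicle. It stood at 47.4, 48.8 and 52.3 CPM at the low dose and 43.5, 48.1 and 51.6 CPM at the medium dose, so that all 9 extract libraries lay above all vehicle libraries. The log2 fold changes at the low, medium and high dose were 0.62, 0.57 and 0.64 (edgeR adjusted p = 1.43e-09, 2.96e-08 and 7.26e-10). High and low dose differed by 0.02 with a 95% interval of -0.10 to 0.14. Of the 10 CLK and SR-protein kinases, 2 rose, CLK1 and CLK4, beside 2.39% of all genes. CLK4 rose by 0.30 at the high dose and by 0.38 at the low dose (edgeR adjusted p = 0.0156 and 0.0141), and was not called with the GC offset. Of 26 SR proteins and splicing regulators 3 rose, SRSF1, SRSF5 and HNRNPDL, by 0.12 to 0.23, beside the same 2.39% of all genes. Of these HNRNPDL was called with the GC offset. None of the 3 was kept without vehicle 1 or high dose 3, and 1 rose without high dose 2.

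The flat pattern was also seen in genes that fell. NFKBIZ, an atypical inhibitor of kappa B that steers NF-kB target choice, stood at 48.3, 50.5 and 42.9 CPM against 64.1, 65.3 and 62.7 CPM in vehicle, with no overlap. Its log2 fold changes at the low, medium and high dose were -0.46, -0.42 and -0.43 (edgeR adjusted p = 9.04e-07, 1.57e-05 and 6.1e-06). KLF6, an immediate early zinc finger factor, stood at 106, 107 and 110 CPM against 133, 133 and 134 CPM, with vehicle values close together. KLF6 fell by 0.33, 0.31 and 0.31 at the 3 doses (edgeR adjusted p = 2.18e-08, 1.6e-07 and 3.21e-07). DNAJB1, an HSP40 co-chaperone of the heat shock response, stood at 84.1, 87.8 and 89.7 CPM against 106, 104 and 103 CPM, and fell by 0.26 at each dose (edgeR adjusted p = 0.000215, 0.000241 and 0.00016). High and low dose differed by 0.03 in NFKBIZ (95% interval -0.09 to 0.15), 0.03 in KLF6 (-0.05 to 0.10) and 0.00 in DNAJB1 (-0.08 to 0.09). MAST3, a microtubule-associated kinase, fell by 0.47 at the high dose, and ZNF367, a zinc finger gene linked to the cell cycle, rose by 0.40. The medium-dose values were -0.36 and 0.32 (edgeR adjusted p = 0.00755 for both). Their low-dose values are not given here, so MAST3 and ZNF367 are not counted in the flat pattern. The 5 other extracts at their high dose had mean CLK1 levels of 41.6 to 49.8 CPM and mean KLF6 levels of 108 to 113 CPM, on the same side of vehicle as Saengmaek-san. All of these differences rest on the same 3 vehicle libraries, and a change in the cells given extract cannot be told apart from a change in the vehicle cells.

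**Figure D4:**
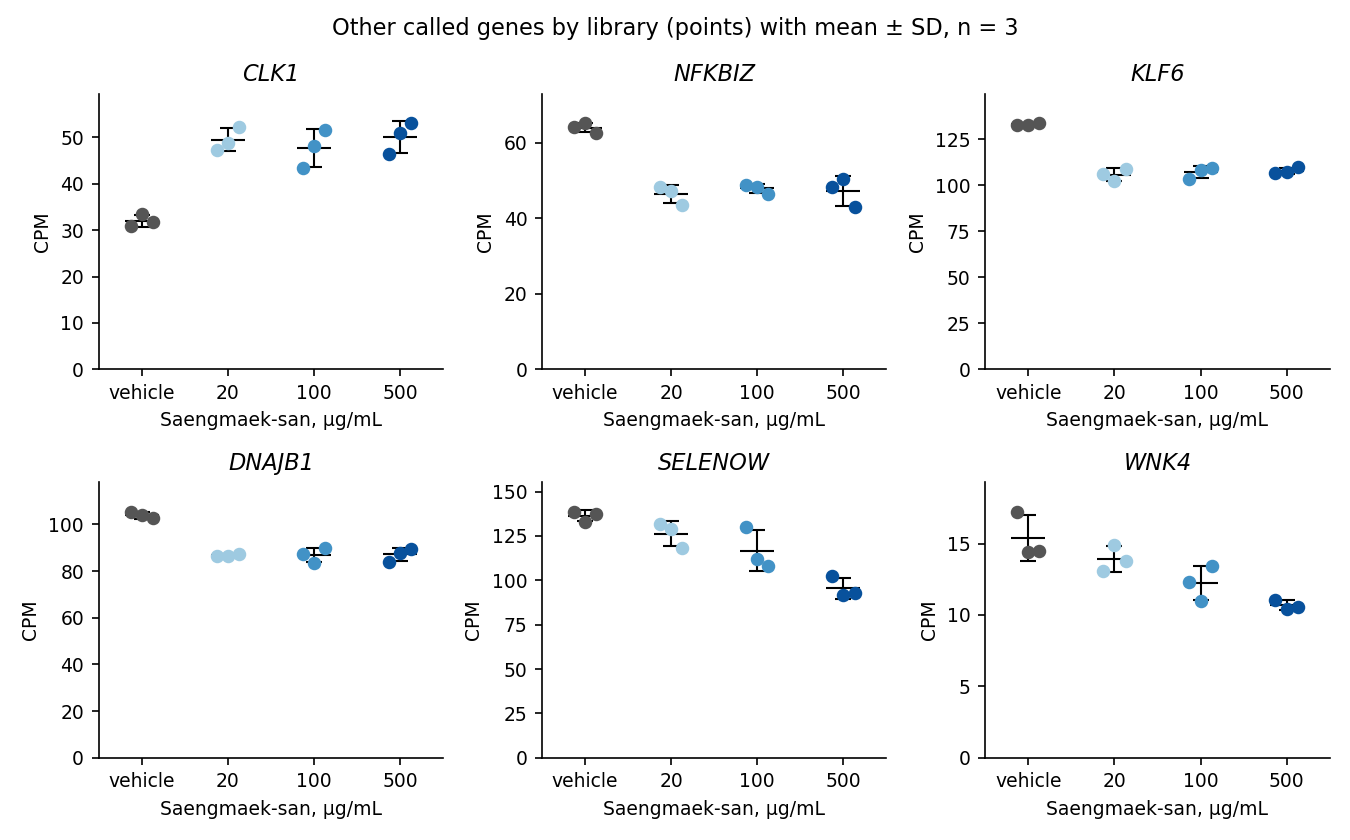
CPM of 6 further genes in each library (points, with mean ± SD, n = 3) in vehicle and at 20, 100 and 500 µg/mL. CLK1 lies above vehicle, and NFKBIZ, KLF6 and DNAJB1 below it, by similar amounts at each dose, while SELENOW and WNK4 have their lowest means at 500 µg/mL.

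Immediate early genes, which respond to growth factors and stress within minutes, lay mostly below 0. Of 26 measured, 5 fell (FOS, EGR1, KLF6, DUSP1 and SRF), beside 1.89% of all genes, and none rose. The number that fell was 1 without vehicle 1, vehicle 3 or high dose 2, and 4 to 7 with another library left out. In the list 21 lay below 0, and the median was -0.16 at the high dose, -0.16 at the medium and -0.15 at the low. FOS stood at 15.7, 15.8 and 20.1 CPM against 22.4, 18.7 and 21.7 CPM, with overlapping groups and an adjusted p of 0.0496 in edgeR's test. EGR1 fell by 0.42 (edgeR adjusted p = 0.045) but was called in 1 of the 6 fits without 1 library. Apart from KLF6, none of the 5 passed with the GC offset. Of 15 MAPK phosphatases and Sprouty genes, which damp the pathway upstream of these factors, DUSP8 and DUSP1, already counted above, fell, beside 1.89% of all genes. Only 1 of the 15 fell without vehicle 1, vehicle 3, high dose 2 or high dose 3. DUSP8 fell by 0.47 (edgeR adjusted p = 0.0012).

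SELENOW, a small selenoprotein with a redox motif, fell at the high dose and had values in between at the lower doses. It stood at 102, 91.9 and 92.6 CPM at the high dose against 139, 133 and 138 CPM in vehicle, and every high-dose library was also below every low- and medium-dose library. The low-dose libraries held 132, 129 and 118 CPM and the medium-dose libraries 130, 112 and 108 CPM. The log2 fold changes were -0.11, -0.23 and -0.51 ± 0.083 (edgeR adjusted p = 0.000282 at the high dose), called in all 6 fits without 1 library and with the GC offset. High and low dose differed by -0.40 (95% interval -0.57 to -0.23, edgeR adjusted p = 0.0539). Among 21 selenoproteins, TXNRD1 and SELENOF rose and SELENOW fell, where 2.39% of all genes rose and 1.89% fell. Only 1 selenoprotein rose without any 1 vehicle library or without high dose 3. WNK4, a kinase that sets chloride and potassium transport, stood at 11.1, 10.4 and 10.6 CPM against 17.2, 14.4 and 14.5 CPM (-0.52 ± 0.096, edgeR adjusted p = 0.00133), below every vehicle library. WNK2, another kinase of that family, fell as well, by 0.29. Of 20 ion transport and WNK kinase genes measured 3 fell, beside 1.89% of all genes. Only 1 did without vehicle 1 or high dose 2, where WNK4 kept its call.

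SOX9, a WNT-driven factor of crypt progenitors, stood at 144, 147 and 166 CPM against 182, 179 and 190 CPM, with no overlap (-0.27 ± 0.056, edgeR adjusted p = 0.00386). Of 17 WNT targets, 4 fell (SOX9, EPHB3, EPHB4 and TCF7L2), beside 1.89% of all genes, none rose and 15 lay below 0, with a median of -0.13. The number that fell was 2 without any 1 vehicle library or without high dose 2, and 6 without high dose 1. TCF7L2, the main TCF factor of the crypt, stood at 69.9, 68.1 and 71.4 CPM against 79.2, 82.2 and 80.9 CPM (-0.21, edgeR adjusted p = 0.0216) and was called in 2 of the 6 fits without 1 library. SOX9 and EPHB3, a guidance receptor of the crypt, were called in all 6 fits without 1 library, EPHB4 lost its call with the GC offset, and so did EPHB3 (adjusted p = 0.06). SOX9 was not among the 16 named genes called under every setting but the fits on the groups compared alone. FOXA2, a factor of gut endoderm and mucin-secreting cells, stood at 12.5, 12.3 and 14.0 CPM against 16.5, 17.3 and 17.1 CPM (-0.40 ± 0.096, edgeR adjusted p = 0.011). LINC00261 (ENSG00000259974, chr20:22547671-22578642 on GRCh38), the long noncoding RNA beside FOXA2, was named after its values were seen. It stood at 12.2, 12.3 and 12.6 CPM at the high dose, below the 14.7 to 15.9 CPM of vehicle and the 14.7 to 17.0 CPM of the low dose. LINC00261 fell by 0.32 against vehicle and by 0.33 against the low dose (edgeR adjusted p = 0.00429 and 0.0369), and the call against vehicle held in all 6 fits without 1 library.

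HOXB genes, which mark position along the gut, gave 3 of the 4 falls among 31 HOX and CDX genes, where 1.89% of all genes fell. The number that fell was 1 without vehicle 1 and 2 without high dose 2. HOXB3 stood at 127, 124 and 132 CPM against 151, 155 and 156 CPM, with no overlap (-0.27 ± 0.052, edgeR adjusted p = 0.00254). HOXB8 fell by 0.34 and HOXC6 by 0.36 (edgeR adjusted p = 0.0217 and 0.0182). With the GC offset HOXB8 was not called (adjusted p = 0.0646). In all, 27 of the 31 members lay below 0 with a median of -0.12. HOXB2 fell by 0.67 on a low level, 3.8 CPM against 6.2 CPM on average. HOXB genes have antisense neighbours, and the strand setting of the counting is not given in the sources used here. CREB3L1, a membrane-bound factor of the secretory pathway, stood at 171, 140 and 164 CPM against 208, 195 and 215 CPM (-0.38, edgeR adjusted p = 0.0114), and was lost without vehicle 1, vehicle 3 or high dose 2. Of 19 goblet and secretory genes, MUC2, CREB3L1 and FOXA2 fell, and none did without high dose 2 and 1 without vehicle 1 or vehicle 3. Of 11 other mucins, MUC3A and MUC12 fell and all 11 lay below 0, with a median of -0.39, but none fell without vehicle 1, vehicle 3 or high dose 2. MUC3A, a membrane mucin of enterocytes, stood at 29.1, 24.7 and 29.6 CPM against 36.1, 35.9 and 37.2 CPM (-0.39, edgeR adjusted p = 0.0215). Its medium-dose and low-dose differences were -0.34 and -0.22 and did not pass. MUC2 and MUC12 were each called in 1 of the 6 fits without 1 library and not with the GC offset.

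Genes of DNA replication lay slightly above vehicle. Of 43 genes of the G1/S transition and replication, 10 rose, beside 2.39% of all genes, none fell and all 43 were above 0, with a median of 0.13 at the high dose, 0.09 at the medium and 0.06 at the low. The 10 were MCM2, MCM3 and MCM7 of the replicative helicase, CDC45 that completes it, the loading factor CDC6, the kinase CDC7, the sliding clamp PCNA, the clamp loader RFC3, the nucleotide reductase RRM2 and the histone mRNA binder SLBP. RRM2 stood at 302, 317 and 315 CPM against 284, 274 and 268 CPM (0.18, edgeR adjusted p = 0.00729). RFC3 stood at 77.3, 83.7 and 85.1 CPM against 68.1, 68.6 and 69.1 CPM (0.26, edgeR adjusted p = 0.0059). The groups did not overlap for 27 of the 43 members, all higher, where 10.5% of all genes were apart and higher. The number that rose fell to 1 without vehicle 1, 2 without high dose 2 and 3 without vehicle 3, reached at most 10 with another library left out, and was 0 when the groups compared were fitted alone. MCM7 stood at 414, 393 and 404 CPM against 376, 368 and 363 CPM (0.13, edgeR adjusted p = 0.0196). It was called in none of the 6 fits without 1 library (adjusted p of 0.05 to 0.09) and in all 6 with the GC offset. Of 30 mitotic genes, ECT2, CDK1 and MAD2L1 rose and CDC25B fell, and none was called without vehicle 1 or high dose 2. In homologous recombination BARD1 rose and RAD52 fell, out of 20, beside 2.39% and 1.89% of all genes. Neither was called without vehicle 1 or high dose 2. With the GC offset CDC6, CDC7, PCNA, RFC3, BARD1 and the 4 mitotic genes were no longer called.

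Other lists held few calls. Among 27 targets of the amino acid response factor ATF4, SLC7A11, MTHFD2, CEBPG and EPRS1 rose, but none did without high dose 2 and 2 without vehicle 1. MTHFD2, a mitochondrial folate enzyme, stood at 141, 146 and 130 CPM against 122, 118 and 118 CPM (0.22, edgeR adjusted p = 0.00554, and 0.0591 with the GC offset). Ribosome biogenesis gave 3 rises among 30 genes, RRP9, DKC1 and DDX21, beside 2.39% of all genes, with a median of 0.14. None rose without vehicle 1 or high dose 3, where the median without high dose 3 was 0.06 and 1 member fell, and 1 rose without vehicle 2, vehicle 3 or high dose 2. In edgeR's test none of 78 cytosolic ribosomal protein genes, 58 nuclear genes of oxidative phosphorylation, 22 CDK inhibitor and p53 target genes or 26 interferon response genes was called. At an unadjusted p under 0.05 these lists held 7, 8, 1 and 6 genes, and DESeq2's test called 2 of the oxidative phosphorylation genes and 0 of the others. The 13 mitochondrially encoded genes were all below 0, with a median of -0.28. None was called by edgeR, 10 had an unadjusted p under 0.05, and DESeq2's test called 1. The NF-kB and chemokine list gave 1 call among 26, the fall of NFKBIZ, and its median was -0.05.

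**Figure D5:**
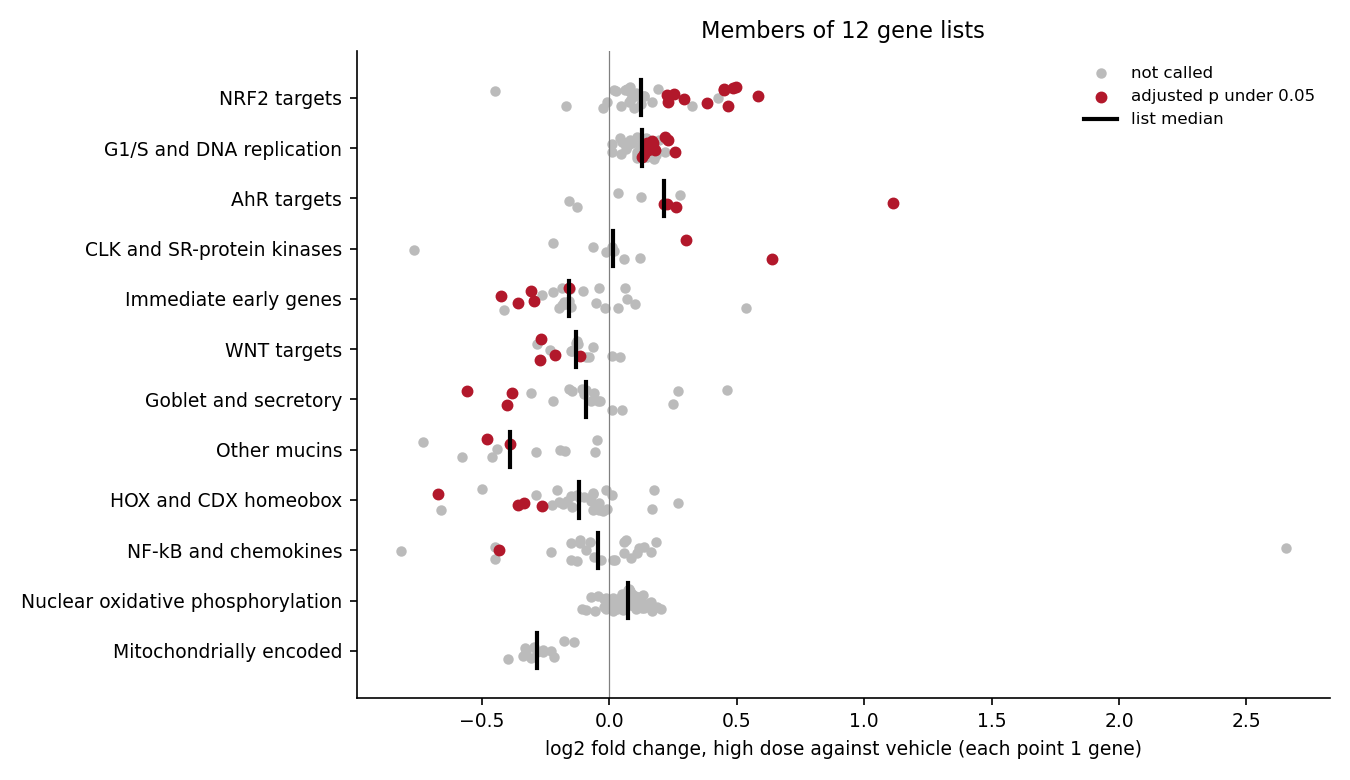
Log2 fold change of the high dose against vehicle for each measured member of 12 gene lists (grey, not called; red, adjusted p under 0.05), with the list median as a bar. NRF2 targets and replication genes lie mostly above 0, and immediate early genes, WNT targets, mucins and HOX genes mostly below it, and the lone NF-kB list point at 2.65 is CXCL5, at 0 CPM on average in vehicle and 0.018 CPM at the high dose.

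Against the mean of the 5 other extracts at the high dose, Saengmaek-san differed in few genes. Of 17049 tested, 49 were called (0.287%), 17 higher (0.0997%) and 32 lower (0.188%). The fold changes of this comparison do not rest on the vehicle libraries, although these were part of the fit. Extract and library order are partly mixed here. High-dose libraries of Menthae Herba and Saposhnikoviae Radix were all in the earlier part, and those of Soyo-san and Okbyeongpung-san all in the later. Guibi-tang, like Saengmaek-san, had high dose 1 and 2 in the earlier part and 3 in the later. With the order term 67 genes were called, the 49 among them. In edgeR's test no NRF2 target was called in this comparison, 30 of the 35 lay below 0 and the median was -0.04. Of these members 6 had an unadjusted p under 0.05, and DESeq2's test called 0. GCLM, for example, stood at 76.2 ± 4.6 CPM (SD, n = 3) here and at 68.5 to 106 CPM on average in the other 5, the highest in Menthae Herba. CLK1, KLF6, SOX9 and SELENOW did not pass either, with differences of 0.14, -0.04, -0.06 and -0.05.

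The genes that did differ included inflammatory chemokines. CXCL8, the neutrophil chemoattractant interleukin 8, stood at 7.61, 7.17 and 7.35 CPM with Saengmaek-san and at 8.00, 7.96 and 7.65 CPM in vehicle. Its mean levels were 27.9 CPM with Guibi-tang, 25.4 CPM with Soyo-san and 25.3 CPM with Okbyeongpung-san, but 9.56 CPM with Menthae Herba and 8.06 CPM with Saposhnikoviae Radix. The difference from the mean of the 5 was -1.19 ± 0.082 (edgeR adjusted p = 1.02e-15). CXCL1 had the same layout, at 1.54, 1.56 and 2.45 CPM with Saengmaek-san and 25.0 to 28.6 CPM on average in the 3 other formulas (-2.43 ± 0.14, edgeR adjusted p = 9.61e-18). Of 26 NF-kB and chemokine genes 14 were lower in this comparison, beside 0.188% of all genes, with a median of -0.36. RBM3, a cold-induced RNA-binding protein, was higher, at 209, 210 and 201 CPM against mean levels of 162 to 193 CPM in the other 5 (0.20 ± 0.03, edgeR adjusted p = 2.31e-05). It stood at 195, 202 and 194 CPM in vehicle, from which the high dose did not differ beyond the spread (0.07, edgeR adjusted p = 0.371). HPGD, which inactivates prostaglandins, stood at 26.2, 30.8 and 28.1 CPM against 24.3 to 24.9 CPM on average in the others (0.21, edgeR adjusted p = 0.0251), and at 24.3, 25.1 and 26.1 CPM in vehicle.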

How the data were processed

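RNA libraries of HT29 cells were made with a directional kit and sequenced as paired reads of 100 bp, per the labels' protocols. The deposited values are expected counts per gene from RSEM 1.3.3, with STAR 2.7.3a, Trim Galore 0.6.5 and FastQC 0.11.9 also named, on GRCh38, per the submitters' processing notes. Which annotation release was used, and with which strand setting, is not given in the sources used here. RSEM divides a read that fits several genes between them, so near-identical genes depend on that division. The authors' expected counts were not scaled between libraries. 27.7% of those above 0 were not whole, and all were rounded.

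Columns were matched to samples by description. Genes were filtered with filterByExpr and scaled by TMM, and 1 fit over 57 libraries of 19 groups, with 38 residual degrees of freedom, was made with edgeR 4.0.16 in R 4.3.3 (robust quasi-likelihood test, Benjamini-Hochberg adjustment over 17049 genes, threshold 0.05). "Called", "rose" and "fell" refer to that threshold. CPM uses TMM-scaled totals and is not per length, so levels are not compared between genes. Standard errors were derived from fold changes and F statistics, and 95% intervals use the t distribution of the residual degrees of freedom. Symbols were found for 41209 identifiers in a table of gene names, and positions and transcript GC came from GENCODE release 29. Replicates were not duplicates, since the chi-square per degree of freedom between pairs was 3.57 or more.

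Named genes were, among protein-coding genes that were called, reached 5 CPM on average in either group and did not overlap, the 12 strongest rises and falls against vehicle and the 5 strongest of each other comparison, with up to 4 members per list by smallest p and a set of readouts. Members of a list that the text counts are named too, and the genes named beyond these were chosen after their values were seen. The comparison, the 47 gene lists (1011 genes, 910 tested) and the rule were chosen with earlier results of these data known. Alternatives were DESeq2 1.42.0 (size factors and its own test), no filter, a replicate block, a term for library order, the earlier libraries alone, the groups compared alone and each library left out. The GC offset and its combinations were added after seeing the data. The cut between earlier and later libraries, used for the order term, is not marked in the labels. The fit was run on simulated counts with known changes larger than most of those called here. Those counts had the same spread for every gene and no outlying library, so they do not test the smaller calls.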

Additional observations from a re-analysis of the deposited data

How the results depend on the processing

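For the high dose against vehicle, 730 genes were called with all settings as described. The count was 1523 with the earlier libraries alone, 51 with the groups compared alone, 328 with the GC offset, 420 with that offset and a replicate block, and 43 with it and the groups alone. Leaving out 1 library gave 95 to 1038 calls, among them 95 without vehicle 1, 365 without vehicle 3, 125 without high dose 2 and 459 without high dose 3. With the GC offset it gave 124, 125 and 98 without vehicle 1, 2 and 3, and 167, 159 and 183 without high dose 1, 2 and 3. The replicate block alone gave 917. Same-numbered libraries of the 2 groups deviated together with correlations of 0.080, -0.010 and -0.022, and differently numbered ones with -0.065 to 0.062. Between the high and the low dose, same-numbered libraries stood at 0.179, 0.041 and 0.282, and differently numbered ones at -0.245 to 0.107. With 3 libraries per group, these values cannot settle whether the numbers pair the samples. The share of higher calls, 55.8%, was 48.1% with DESeq2's size factors, 35.8% with no filter (272 higher and 488 lower, 409 of them among the 730), 17.6% with the groups alone and 35.8% and 37.6% without vehicle 1 and high dose 2.

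The medium dose (71 calls) gave 320 with no filter, 297 with the order term, 480 with the earlier libraries, 28 with the groups alone, 190 with DESeq2's test, 38 with the GC offset, 198 with that and the order term, 37 with that and the groups alone, and 4 to 64 without 1 library (5 without vehicle 1, 34 without vehicle 2, 19 without vehicle 3, 4 without medium dose 2). The low dose (16 calls) gave 172, 46, 54, 4 and 40 in the first 5 of these settings, 66 and 31 with the GC offset plus the order term or block, and 5 to 11 without 1 library. High against low dose (4 calls) gave 128 with no filter, 17 with the block, 22 with the order term, 23 with the earlier libraries, 22 with DESeq2's test, 24 and 21 with the GC offset plus the order term or block, and 0 to 0 without 1 library. With the groups alone edgeR's test gave 0 calls, without and with the GC offset, beside 592 and 664 genes at an unadjusted p under 0.05. High dose against the other 5 extracts (49 calls) gave 169 with no filter, 28 with the groups alone, 29 with those and the GC offset, and 26 to 58 without 1 library (26 and 31 without high dose 2 and 3). A fit on the earlier libraries could not be made there.

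NRF2 targets called numbered 11, all higher, 7 with the groups alone and 6 to 12 without 1 library, the 12 being 11 rises and 1 fall without high dose 3. Replication genes that rose numbered 10, 0 with the groups alone and 1 to 10 without 1 library. The mitochondrial difference was -2.69 to -1.57 percentage points without 1 library. The share of the 10 most abundant genes differed by -2.17 to -1.29 points, and the total count by -7.08 to 0.387 in units of 1e6, above 0 without high dose 3. Of 97 named genes called, 48 were not called with the GC offset, 72 with the groups alone, 3 with the order term and 0 with DESeq2's test, and 14 were called under every setting. PSMD14, a proteasome subunit, turned to -0.0011 and -0.032 with the GC offset without vehicle 3 and without high dose 1. The cause of these shifts was not tested. Depth limits the genes near 1 CPM, such as CYP1A1 and ABCC2.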

Other observations

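Values of 4 genes on none of the lists, chosen after they were seen, are given singly. AHDC1, a DNA-binding protein with AT-hook motifs, stood at 47.0, 46.0 and 49.9 CPM against 66.7, 63.3 and 61.2 CPM in vehicle, with no overlap (-0.42 ± 0.074, edgeR adjusted p = 0.000698). It fell at the medium dose as well, by 0.37 (edgeR adjusted p = 0.0105). HDAC7, a class IIa histone deacetylase, stood at 104, 101 and 101 CPM against 118, 117 and 116 CPM (-0.20 ± 0.04, edgeR adjusted p = 0.00282). SETD1B, a histone H3 methyltransferase, and CIC, a repressor of ERK-responsive genes, fell by 0.31 and 0.32 (edgeR adjusted p = 0.00375 and 0.00582). All 4 were called with the GC offset and in its 6 fits without 1 library. Their transcripts have a GC content of 57.7 to 65.8%, above the median of all genes.

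The zinc exporter SLC30A1 stood at 39.3, 42.8 and 37.7 CPM against 31.4, 33.8 and 33.5 CPM in vehicle and differed by 0.30, 0.26 and 0.28 at the low, medium and high dose (edgeR adjusted p = 0.0324, 0.0439 and 0.00871). Every high-dose library lay above every vehicle library, but the call at the high dose was not kept with the GC offset (adjusted p = 0.117). Of 12 metallothionein and zinc transport genes measured, 2 rose at the high dose, SLC30A1 and SLC39A6, and SLC39A4 fell. Among all genes 2.39% rose and 1.89% fell. Without vehicle 1 none of the 12 was called. EDN1, the vasoactive peptide endothelin 1, stood at 17.7, 21.1 and 20.9 CPM against 25.1, 22.1 and 25.2 CPM and fell by 0.35, 0.42 and 0.28 at the low, medium and high dose (edgeR adjusted p = 0.0331, 0.00502 and 0.0254). For SLC30A1 and EDN1 the differences at all doses rest on the same 3 vehicle libraries.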
